A study of Rattus norvegicus with 19 samples.

Results

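Kctd13, its close relatives Tnfaip1 and Kctd10, the ubiquitin ligase subunits Cul3 and Rbx1, the GTPase Rhoa and the kinases Rock1 and Rock2 were followed in the hippocampus of rats with a deletion or duplication that includes Kctd13. The genes were chosen by symbol: Kctd13 as a gene of the rearranged interval, and the other 7 for their place in the KCTD13, CUL3 and RHOA pathway. All 8 were found in the files, among 32623 genes, and all 8 were among the 15440 genes that passed the filter on low counts. RNA was sequenced from 19 adult male Sprague Dawley rats, 1 library per animal, and age at tissue collection is not given in the sources used here. The wild-type group (wt, n = 6) carried neither rearrangement and had 2 copies of the interval from Sult1a1 to Spn. Del/+ rats (n = 4) carried the deletion on 1 chromosome and had 1 copy, Dup/+ rats (n = 5) carried the duplication on 1 chromosome and had 3 copies, and Del/Dup rats (n = 4) carried both and had 2 copies. The rearrangements were made with CRISPR/Cas9 in fertilized embryos and inherited by the animals studied, so they were not limited to a cell type, and the stock was outbred, so the animals differed in background. The label of wt replicate 5 gave wt in its description and Dup/+ in its genotype field; it was counted as wt. Its Kctd13 level was 79.6 CPM and the median of the other 26 interval genes was −0.03 (log2) from the wt mean, beside 109.9 to 123 CPM and 0.48 to 0.58 in the Dup/+ libraries. Kctd13 changes and counts of genes called that moved under the other reading are given beside the comparisons with wt.

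KCTD13 is an adaptor protein: its BTB domain binds the cullin CUL3, and it brings substrates to a ligase complex in which RBX1 recruits the ubiquitin-conjugating enzyme. RHOA, a small GTPase that switches between a GTP-bound and a GDP-bound form, is a known substrate of this ligase through KCTD13 and its relatives TNFAIP1 and KCTD10. Active RHOA binds the kinases ROCK1 and ROCK2, which phosphorylate myosin light chain and the LIM kinases and so act on the actin cytoskeleton of dendrites and spines. The steps from KCTD13 to RHOA are protein degradation steps, and the files hold RNA only.

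The 2 guide RNAs that were injected to rearrange the Sprague Dawley interval are shown because they set which genes, Kctd13 among them, changed in copy number. They are given as the study's supplement lists them, 21 bases each, in lower case throughout because no part was marked there as a PAM. Their positions were not looked up, since no genome of the files' build was used here.
Hamont3 9revS: gcaatctcacgtgtctgatgg
sgrHavalB161forw: gtgacatcgtgaccctgctgg

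Libraries held 16191192 to 38760645 reads in genes. Reads aligned to more than 1 place were set against all records of the counter, in genes or in its summary lines. They were not part of the reads in genes. They made up 40.1% to 47.6% of all records in wt and 45.1% to 50.5% in Dup/+. In Del/Dup they made up 57.8% to 70.7%, and in Del/+ replicates 1 to 3 63.9% to 76.3%, with 41.6% in Del/+ replicate 4. This share therefore moved with genotype, and its part in the results was tested only by the fits named below. Of 10 markers of hippocampal neurons, 9 had a wt mean of at least 1 count-per-million (CPM), and Fibcd1 was listed at 0 in every library. Their summed level was 5129 to 6067 CPM in wt, 4418 to 5125 CPM in Del/+, 4673 to 5896 CPM in Dup/+ and 4089 to 5341 CPM in Del/Dup. The summed level of 8 oligodendrocyte markers was 5124 to 6626 CPM in wt, 6027 to 9053 CPM in Del/+, 6024 to 6903 CPM in Dup/+ and 5946 to 7244 CPM in Del/Dup. The sum over 10 choroid plexus markers, of which 5 had a wt mean of at least 1 CPM and Otx2 was listed at 0 everywhere, was 5.56 to 38.6 CPM in wt, 7.92 to 1309 CPM in Del/+, 8.88 to 423 CPM in Dup/+ and 44.9 to 1251 CPM in Del/Dup. Sums of markers of astrocytes (7 genes) and vascular cells (5 in the files, Cldn5 listed at 0) overlapped wt in each carrier group, as did those of microglia (6 genes); those of blood (4 in the files) were 135 to 181 CPM in Dup/+ and 85.7 to 120.5 CPM in wt. In such bulk tissue, fewer cells of a type and less RNA per cell cannot be told apart. Levels below are CPM after TMM scaling of the library sizes and are not adjusted for gene length, so levels of different genes are not compared.

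Kctd13 (ENSRNOG00000020010) was lower in Del/+, higher in Dup/+ and near the wt level in Del/Dup. Its wt libraries ran from 79.6 to 85.9 CPM, with a median of 83.2 CPM. The 4 Del/+ libraries had 50.7, 37.7, 41.3 and 36.1 CPM. The 5 Dup/+ libraries had 119.5, 116, 123, 109.9 and 122 CPM. Every Del/+ library was thus below, and every Dup/+ library above, all 6 wt libraries. The 4 Del/Dup libraries, replicates 2 to 5, had 63.6, 85.3, 77.4 and 78.6 CPM, so that replicate 3 lay within the wt range and the other 3 lay below it, replicate 2 by the most.

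The mean was 82.9 ± 3.03 CPM in wt (SD, n = 6), 41.4 ± 6.56 CPM in Del/+ (n = 4), 118 ± 5.29 CPM in Dup/+ (n = 5) and 76.2 ± 9.12 CPM in Del/Dup (n = 4). The order of means was Dup/+, wt, Del/Dup and Del/+, and its neighbours wt and Del/Dup did not differ beyond their spread in the test. Relative to wt, Kctd13 fell to 0.500-fold in Del/+ (95% interval 0.444 to 0.562, edgeR quasi-likelihood test with Benjamini-Hochberg adjustment over all genes tested, adjusted p = 9.54e-08). It rose to 1.42-fold in Dup/+ (95% interval 1.28 to 1.58, adjusted p = 7.03e-04). Kctd13 was the only member called in each of these comparisons, in which 0.771% (Del/+) and 0.272% (Dup/+) of all genes tested were called. These shares stand for 119 and 42 genes. With 1 library left out the Del/+ count ran from 46 (without Del/+ replicate 2) to 337 (without Del/Dup replicate 2), and the Dup/+ count from 27 (without wt replicate 1 or Dup/+ replicate 1) to 44 (without Del/Dup replicate 3). When wt replicate 5, with its Kctd13 level of 79.6 CPM below every Dup/+ library, was moved to Dup/+, the change in that group was 0.42 on the log2 scale and was no longer called (adjusted p = 0.176), and the Del/+ call remained (adjusted p = 2.21e-05). The counts over all genes were then 81 in Del/+ and 12 in Dup/+. The separation of the libraries of both groups from wt, seen for Kctd13, held for 4.94% of all genes in Del/+ and 1.17% in Dup/+.

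In Del/Dup, which has the copy number of wt on 1 rearranged chromosome of each kind, the Kctd13 change was −0.12 on the log2 scale (95% interval −0.29 to 0.04, adjusted p = 0.444), and no member was called, against 0.0907% of all genes. That share stands for 14 genes and moved by more than 1.5 times under 25 of 28 other settings, falling to 2 genes when Del/Dup replicate 4 was left out and rising to 216 when replicate 3 of that group was left out. It was 57 genes with wt replicate 5 read as Dup/+. The Kctd13 change was −0.04 without Del/Dup replicate 2 (adjusted p = 0.888) and −0.38 with the class of high multi-mapped share as a term (adjusted p = 0.346), and it was not called under either. Kctd13 differed between carriers of different copy number: it was 1.51 lower on the log2 scale in Del/+ than in Dup/+ (adjusted p = 1.04e-10), where 0.784% of all genes were called, and 0.88 higher in Del/Dup than in Del/+ (adjusted p = 3.09e-06), where 0.175% were called. The 0.784% stand for 121 genes, and over the fits with 1 library left out the count ran from 60 (Del/+ replicate 2 left out) to 194 (Del/Dup replicate 2 left out). In Del/+ replicates 1 to 3 and Del/Dup alone, whose libraries all had more than 55% multi-mapped reads, the difference between Del/Dup and Del/+ was 0.82 (adjusted p = 0.0326). In Del/+ against Dup/+ and in Del/Dup against Del/+ the libraries of the groups did not overlap, which held for 5.3% and 4.37% of all genes. With the class of high multi-mapped share as a term in the fit, the Del/+ change was −1.20 (adjusted p = 5.98e-05).

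**Figure D1:**
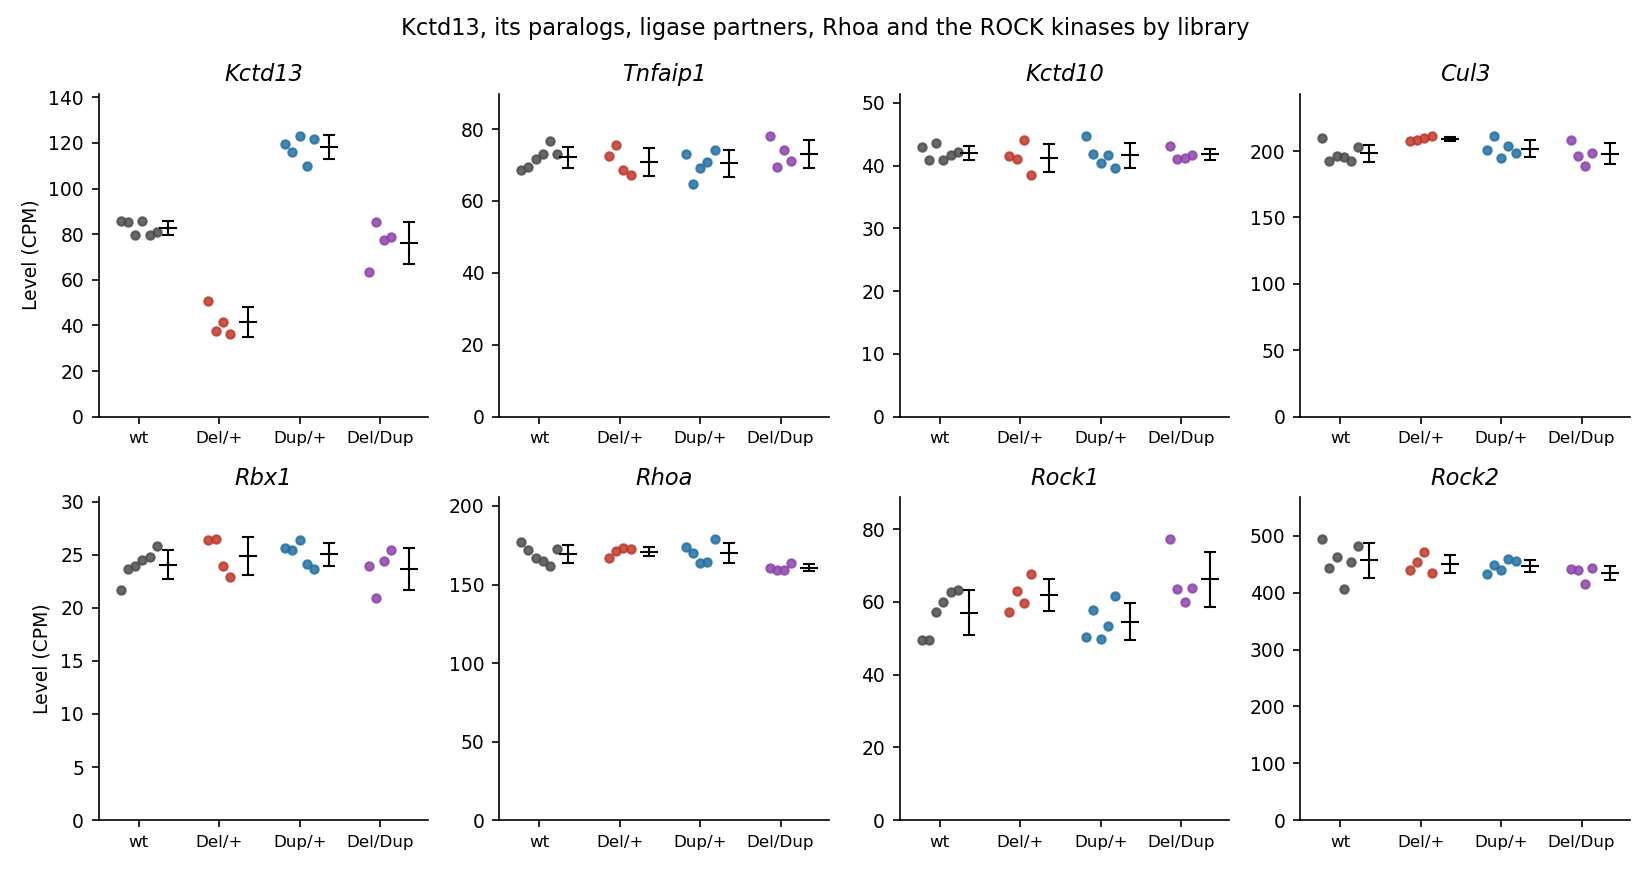
Level of each of the 8 genes (vertical axis, CPM, from 0) in each library (points) of wt, Del/+, Dup/+ and Del/Dup (horizontal axis), with the mean and SD of each group beside the points. Kctd13 lies between 36.1 and 50.7 CPM in Del/+ and between 109.9 and 123 CPM in Dup/+, apart from the wt points at 79.6 to 85.9 CPM, whereas the points of the other 7 genes overlap wt in every carrier group.

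Divided by the number of interval copies, the Kctd13 level was 41.4 ± 1.52 CPM per copy in wt, 41.4 ± 6.56 in Del/+, 39.4 ± 1.76 in Dup/+ and 38.1 ± 4.56 in Del/Dup. The ratio of group means to wt was 0.500 in Del/+, 1.42 in Dup/+ and 0.920 in Del/Dup, beside 0.5, 1.5 and 1 if the level followed the copies in proportion. The intervals of the fitted fold changes contain 0.5 in Del/+, 1.5 in Dup/+ and 1 in Del/Dup. In a fit on the number of copies over all 19 libraries, the Kctd13 level rose by 0.74 on the log2 scale per copy (95% interval 0.63 to 0.85, adjusted p = 3.70e-09); Kctd13 was again the only member called, and 0.576% of all genes were called. That share stands for 89 genes, and over the fits with 1 library left out it ran from 48 (Del/+ replicate 2) to 124 (Del/Dup replicate 2).

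The other genes of the interval list give a measure of how Kctd13 stood within its own segment, as a description. Among the 27 interval genes tested, its change ranked 16th from the lowest in Del/+, where the median change was −1.01, and 13th in Dup/+, where the median was 0.51. In Del/Dup it ranked 10th, with a median of −0.06. Kctd13 was therefore near the middle of the interval genes in the Del/+ and Dup/+ comparisons. Single libraries departed from this: relative to the wt mean, Kctd13 was 0.20 (log2) above the median of the other 26 interval genes in Del/+ replicate 1, 0.20 below it in Del/+ replicate 4 and 0.31 below it in Del/Dup replicate 2. In wt the same difference stayed between −0.06 and 0.03. Del/Dup replicate 2 was also the library with 1087 CPM of the choroid plexus transcript Ttr, beside 0.921 to 27.4 CPM in wt. Del/+ replicate 3 had more Ttr, at 1126 CPM, and its Kctd13 level was 0.07 above the interval median. The part of Ttr in the Kctd13 level was not tested beyond the fit with Ttr as a covariate, in which the Del/Dup change was −0.07 (adjusted p = 0.879).

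**Figure D2:**
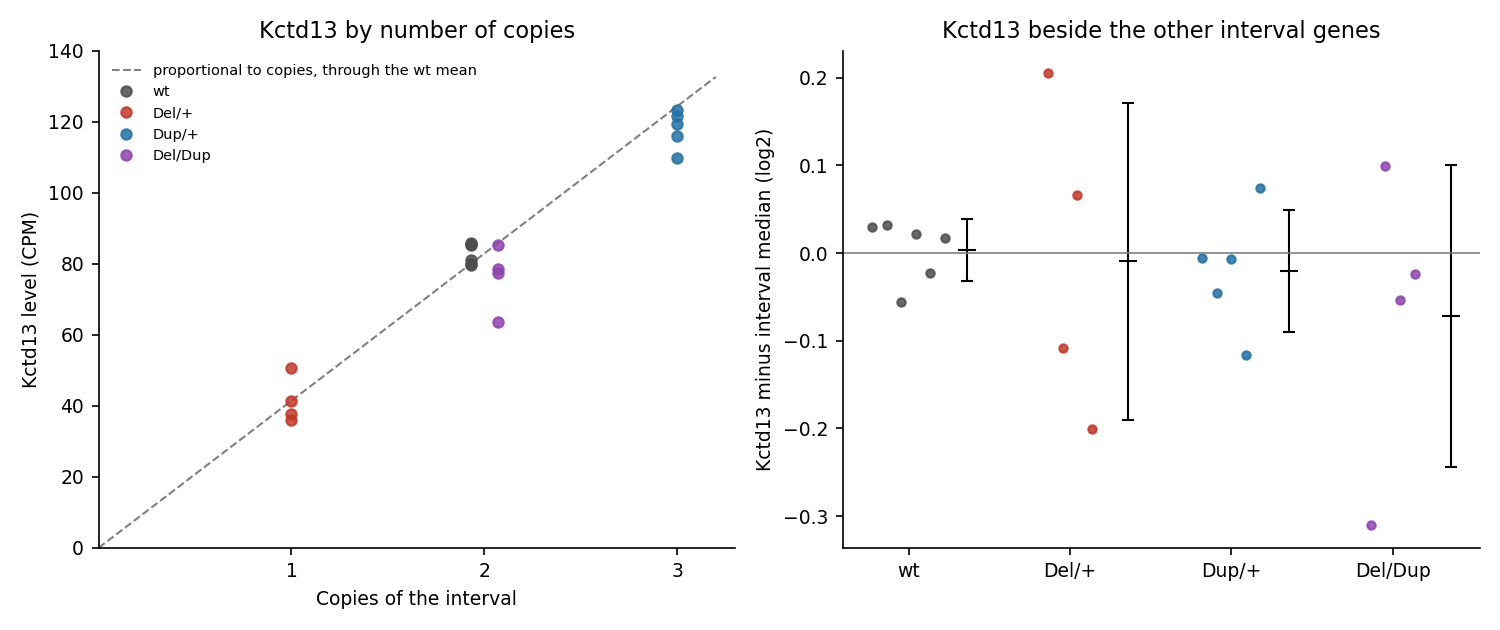
Left, Kctd13 level (CPM) of each library against the number of interval copies, with a dashed line proportional to copies through the wt mean; right, Kctd13 minus the median of the other 26 interval genes (log2, each relative to its wt mean) by library, with the group mean and SD. All 5 Dup/+ points lie below the line, with the Dup/+ mean at 1.42 times wt where the line is at 1.5, and Del/+ replicates 1 and 4 and Del/Dup replicate 2 lie farthest from the interval median, at 0.20, −0.20 and −0.31.

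Tnfaip1 and Kctd10, the paralogs that can bring RHOA to CUL3 as KCTD13 does, were measured next to ask whether their RNA moved opposite to Kctd13. Neither was called in a comparison. Tnfaip1 (ENSRNOG00000009069) was at 68.6 to 76.8 CPM in wt, 67.1 to 75.6 CPM in Del/+, 64.8 to 74.1 CPM in Dup/+ and 69.3 to 78.2 CPM in Del/Dup. Kctd10 (ENSRNOG00000047896) was at 40.8 to 43.7 CPM in wt, 38.5 to 44.0 CPM in Del/+, 39.6 to 44.8 CPM in Dup/+ and 41.1 to 43.1 CPM in Del/Dup. The ranges of both genes overlapped wt in each carrier group.

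The Tnfaip1 change in Del/+ was −0.03 on the log2 scale (95% interval −0.12 to 0.07, adjusted p = 0.815). That of Kctd10 was −0.03 (95% interval −0.11 to 0.06, adjusted p = 0.786). In Dup/+ the changes were −0.03 for Tnfaip1 (95% interval −0.13 to 0.06) and −0.01 for Kctd10 (−0.09 to 0.07). Rises of more than 0.07 in Del/+ were outside the intervals of both paralogs, on the scale on which Kctd13 fell by 1.0. The summed reads of the 3 paralogs were 197 ± 1.64 CPM in wt (n = 6), 154 ± 9.36 CPM in Del/+ (n = 4), 230.2 ± 7.08 CPM in Dup/+ (n = 5) and 191 ± 4.58 CPM in Del/Dup (n = 4). Without Kctd13 the sums were 114, 112, 112 and 115 CPM, so the difference in the sum lay in Kctd13 reads.

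Cul3 (ENSRNOG00000015633), the scaffold of the ligase, kept close to its wt level in all groups. It had 193 CPM in its lowest, 196 CPM in its median and 209.6 CPM in its highest wt library. In Del/+ the values were 208, 208, 209.7 and 211 CPM, a span narrower than in any other group. In Dup/+ they were 201, 212, 195, 204 and 198 CPM, and in Del/Dup 209, 196, 189 and 198 CPM. All 4 Del/+ libraries lay above 5 of the 6 wt libraries, and the ranges overlapped through wt replicate 1. The change was 0.08 in Del/+ (95% interval 0.00 to 0.15, unadjusted p = 0.0437, edgeR adjusted p = 0.256), 0.03 in Dup/+ (−0.04 to 0.10) and −0.00 in Del/Dup (−0.08 to 0.08). An unadjusted p under 0.05 was reached by 18.4% of all genes in Del/+, 8.94% in Dup/+ and 16.2% in Del/Dup. The Cul3 difference in Del/+ was not called.

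Rbx1 (ENSRNOG00000058914), the RING subunit, was at 21.7 to 25.8 CPM in wt, 22.9 to 26.5 CPM in Del/+, 23.7 to 26.3 CPM in Dup/+ and 20.9 to 25.4 CPM in Del/Dup. The groups overlapped. Its changes were 0.05 in Del/+ (95% interval −0.08 to 0.17), 0.06 in Dup/+ (−0.06 to 0.18) and −0.02 in Del/Dup (−0.15 to 0.11).

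Rhoa (ENSRNOG00000050519), the substrate, had 161.5 CPM in its lowest, 169 CPM in its median and 177 CPM in its highest wt library. In Del/+ it had 167, 171, 173 and 173 CPM, and in Dup/+ 174, 169.8, 164, 164 and 179 CPM. In Del/Dup it had 160.5, 159, 159.6 and 164 CPM, so that 3 of the 4 libraries lay below all wt libraries and the groups overlapped through replicate 5. The RNA level of Rhoa changed by 0.01 in Del/+ (95% interval −0.06 to 0.09, adjusted p = 0.863) and by 0.01 in Dup/+ (−0.06 to 0.08, adjusted p = 0.971). In Del/Dup the difference was −0.07 (−0.15 to −0.00, unadjusted p = 0.0484, adjusted p = 0.306) and was not called. Del/Dup and Del/+ did not overlap for Rhoa, which held for 4.37% of all genes. The difference of −0.09 had an unadjusted p of 0.0327 and an edgeR adjusted p of 0.541, where 8.48% of all genes had an unadjusted p under 0.05. The order of the group means was Del/+, Dup/+, wt and Del/Dup, and no neighbours in it were told apart by the test.

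Rhob and Rhoc, the close relatives of Rhoa, were not called either. Rhob had means of 308 ± 17.0 CPM in wt, 275 ± 12.5 CPM in Del/+, 301 ± 18.0 CPM in Dup/+ and 272 ± 29.7 CPM in Del/Dup. Its difference from wt was −0.16 in Del/+ (unadjusted p = 0.0161, edgeR adjusted p = 0.168), where the libraries did not overlap (4.94% of all genes). In Del/Dup the Rhob difference was −0.18 (unadjusted p = 0.00933, edgeR adjusted p = 0.197). Neither was called. Rhoc had means of 16.3 ± 2.13 CPM in wt, 16.8 ± 2.17 CPM in Del/+, 15.6 ± 1.35 CPM in Dup/+ and 14.8 ± 0.702 CPM in Del/Dup, with overlap in all groups.

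Rock1 (ENSRNOG00000031092) had the largest difference from wt among the 7 genes outside the interval. Its wt libraries had 49.6 CPM at the lowest, 58.6 CPM at the median and 63.3 CPM at the highest. The Del/+ libraries had 57.1, 62.9, 59.8 and 67.5 CPM, and the Dup/+ libraries 50.3, 57.8, 49.8, 53.3 and 61.7 CPM. The Del/Dup libraries had 77.2, 63.5, 60.03 and 63.9 CPM, with replicate 2 above every other library of the series and replicate 4 within the wt range. The change in Del/Dup was 0.21 on the log2 scale (95% interval 0.04 to 0.39, unadjusted p = 0.0185, edgeR adjusted p = 0.228) and was not called. It was 0.13 without Del/Dup replicate 2, 0.11 once Ttr entered the fit (adjusted p = 0.804) and 0.39 with the class of high multi-mapped share as a term (adjusted p = 0.381). The changes in Del/+ and Dup/+ were 0.12 (−0.05 to 0.29) and −0.06 (−0.23 to 0.10).

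Rock2 (ENSRNOG00000004496) was at 407 to 494 CPM in wt, with a median of 458 CPM. In Del/+ it had 441, 455, 472 and 435 CPM, in Dup/+ 434, 449, 439, 460.02 and 455 CPM, and in Del/Dup 441, 439, 415 and 443 CPM. The libraries of all 3 carrier groups lay inside the wt range. The changes from wt were −0.02 in Del/+ (95% interval −0.12 to 0.07), −0.03 in Dup/+ (−0.12 to 0.06) and −0.07 in Del/Dup (−0.17 to 0.02).

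**Figure D3:**
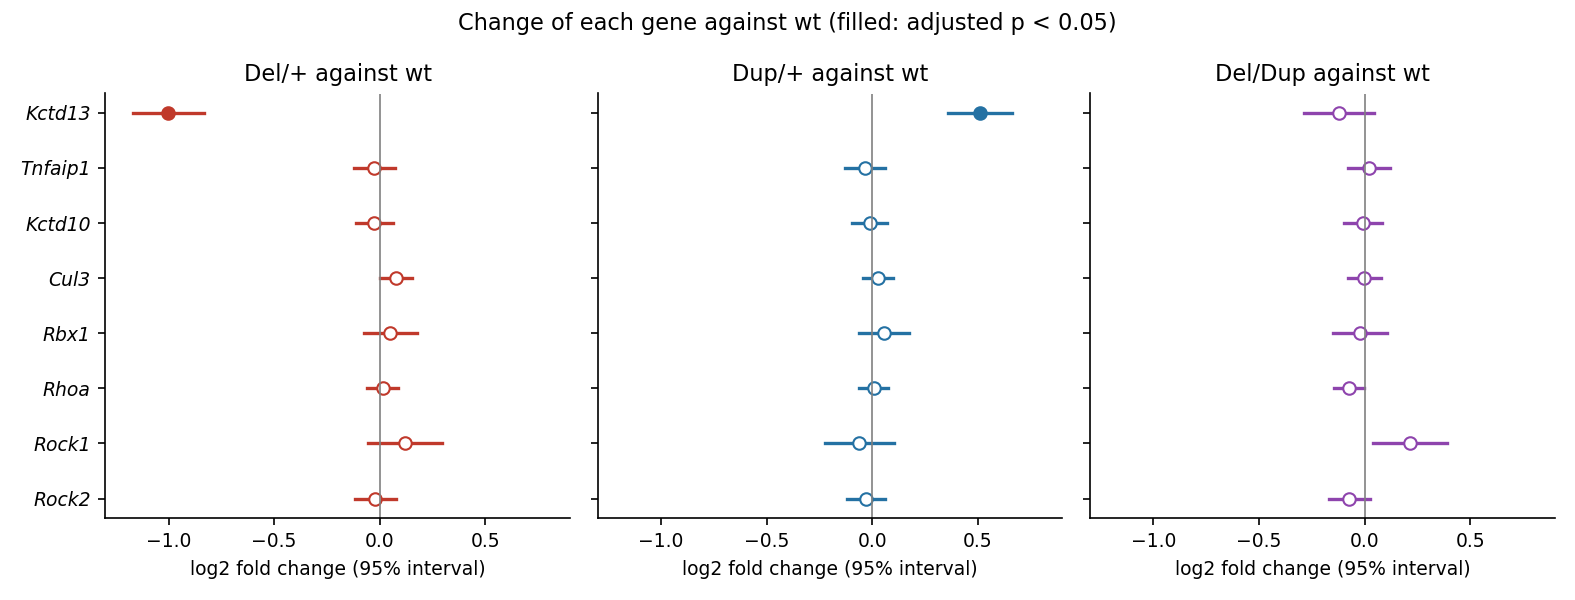
Log2 fold change of each gene from wt (horizontal axis) with its 95% interval (lines) in Del/+, Dup/+ and Del/Dup; filled points passed an adjusted p of 0.05 and open points did not. Only Kctd13 in Del/+ (−1.0) and in Dup/+ (0.51) is filled, and the intervals of the other 7 genes stay between −0.23 and 0.39.

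The 7 genes outside the interval, which lie on other chromosomes than Kctd13 in the GRCr8 gene table, can be summed up by their bounds. None of the 7 was called in any of the 6 comparisons. At an unadjusted p under 0.05 there was 1 gene in Del/+ (Cul3), 0 in Dup/+, 2 in Del/Dup (Rhoa and Rock1), 0 of 7 in Del/+ against Dup/+ (13.5% of all genes), 1 in Del/Dup against Del/+ (Rhoa) and 0 in the fit on copies (11.5% of all genes). The 95% intervals of the fold changes from wt had their outer bounds at 0.918 and 1.22 for Del/+, at 0.855 and 1.13 for Dup/+, and at 0.890 and 1.31 for Del/Dup. Between libraries, as deviations from group means, the log2 level of Kctd13 had a Pearson correlation of −0.57 with that of Rock1 and of −0.35 with that of Cul3 (19 libraries); this is a description of libraries that also share depth and tissue make-up.

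The wider pathway was read from 6 lists with 185 genes, 4 of which are described below; the files held 175 of these, and 173 passed the filter. With edgeR, 0 of the 173 were called in each comparison against wt. At an unadjusted p under 0.05 there were 38 (22.0%) in Del/+, 16 (9.25%) in Dup/+ and 40 (23.1%) in Del/Dup, beside 18.4%, 8.94% and 16.2% of all genes tested. The median change over the 173 genes was −0.01 in each of the 3 comparisons, beside 0.00, −0.00 and 0.00 over all genes tested. DESeq2, run as an alternative, called 3 of these genes in Del/+, 0 in Dup/+ and 4 in Del/Dup. Among genes given an adjusted p by DESeq2 these were 1.86%, 0% and 2.3%, beside 5.5%, 0.443% and 1.13% of all genes.

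The cullin ligase machinery list held cullins, the NEDD8 pathway that activates them and the COP9 signalosome that switches them off. Of its 31 genes, 7 (22.6%) in Del/+, 3 (9.68%) in Dup/+ and 7 (22.6%) in Del/Dup reached an unadjusted p under 0.05. The shares of all genes were 18.4%, 8.94% and 16.2%. The median changes of the list were 0.05, 0.02 and 0.01. Dcun1d2, a cofactor in attaching NEDD8 to cullins, averaged 3.94 ± 0.765 CPM in wt and 2.51 ± 0.378 CPM in Del/Dup, with no overlap between their libraries (2.56% of all genes). The difference was −0.65 (unadjusted p = 5.30e-04, edgeR adjusted p = 0.101; called by DESeq2). Cops7b, a COP9 signalosome subunit, averaged 13.1 ± 1.19 CPM in wt and 11.03 ± 0.300 CPM in Del/+, a difference of −0.25 (edgeR adjusted p = 0.109).

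Other adaptors that use CUL3, mostly KCTD, KLHL and BTBD proteins, made up a list of 40 genes with 38 tested. An unadjusted p under 0.05 was reached by 7 in Del/+, 4 in Dup/+ and 7 in Del/Dup, with median changes of 0.02, 0.00 and −0.01. Kctd9 averaged 7.31 ± 0.326 CPM in wt, 8.53 ± 0.492 CPM in Del/+ and 8.86 ± 1.05 CPM in Del/Dup. Neither carrier group overlapped wt, which held for 4.94% and 2.56% of all genes. Kctd9 was named for its small unadjusted p, so this separation adds no support of its own. Its differences were 0.22 (edgeR adjusted p = 0.124) and 0.28 (adjusted p = 0.138), and the Del/Dup difference was called only when Del/Dup replicate 3 was left out, among the settings run. Kctd21 averaged 18.0 ± 1.28 CPM in wt and 15.7 ± 0.771 CPM in Dup/+, again without overlap (1.17% of all genes). The difference was −0.19 (edgeR adjusted p = 0.298). In Del/+ against Dup/+ the Kctd21 difference was 0.26 (edgeR adjusted p = 0.0649), and in the fit on copies it was −0.13 per copy (adjusted p = 0.0651). Neither passed the threshold in these edgeR fits of all 19 libraries, whereas Kctd21 was called in both without wt replicate 1, without Del/Dup replicate 2 and by DESeq2.

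Among the RhoA and ROCK effectors, 39 were tested from a list of 45. In Del/+, Dup/+ and Del/Dup, 8 (20.5%), 5 (12.8%) and 7 (17.9%) reached an unadjusted p under 0.05. The shares of all genes were 18.4%, 8.94% and 16.2%. The median changes of the list were −0.03, −0.04 and 0.01. Mrtfa, a coactivator of serum response factor that RHOA releases into the nucleus through actin assembly, averaged 82.4 ± 4.31 CPM in wt (lowest library 78.4 CPM) and 64.5 ± 6.90 CPM in Del/+ (highest library 70.9 CPM). The difference was −0.35 (95% interval −0.55 to −0.16, edgeR adjusted p = 0.0718) and was called by DESeq2, by the fit on Del/+ and wt alone, and without Del/Dup replicate 2 or 3. In Dup/+ Mrtfa averaged 81.8 ± 4.67 CPM, a difference of −0.01. Cfl1, the actin-severing protein cofilin that LIM kinases inactivate downstream of ROCK, averaged 369 ± 9.75 CPM in wt and 319 ± 13.2 CPM in Del/Dup. Their libraries did not overlap (2.56% of all genes). The difference was −0.21 (edgeR adjusted p = 0.1004) and was called by DESeq2.

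Rtkn, an effector that binds GTP-loaded RHOA, was the 1 gene of the 173 called in the fit on copies (edgeR adjusted p = 0.0404). It had 29, 25, 2, 41 and 1 reads in the Dup/+ libraries, 9 reads in wt replicate 5 and 23 reads in Del/Dup replicate 5. It was listed at 0 in the other 5 wt, the other 3 Del/Dup and all 4 Del/+ libraries. The call thus rested on few reads in 7 libraries, and it was lost in 14 of the 19 fits that left out 1 library and with the replicate block. DESeq2 gave Rtkn no adjusted p in the fit on copies (unadjusted p = 0.00899).

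The list of other KCTD13 partners held 6 genes with 4 tested. Of these, 2 (50%), 1 (25%) and 1 (25%) reached an unadjusted p under 0.05 in Del/+, Dup/+ and Del/Dup. The shares of all genes were 18.4%, 8.94% and 16.2%, and 4 genes are too few to set against them. The median changes of the list were 0.12, −0.00 and 0.04. Pcna, the sliding clamp of DNA polymerase, averaged 25.8 ± 1.51 CPM in wt and 29.4 ± 1.72 CPM in Del/+, without overlap (4.94% of all genes). The difference was 0.19 (edgeR adjusted p = 0.0956) and was called by DESeq2. Pold2, a subunit of DNA polymerase delta, averaged 12.1 ± 1.12 CPM in wt and 10.6 ± 1.58 CPM in Del/+ (difference −0.20, edgeR adjusted p = 0.261).

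**Figure D4:**
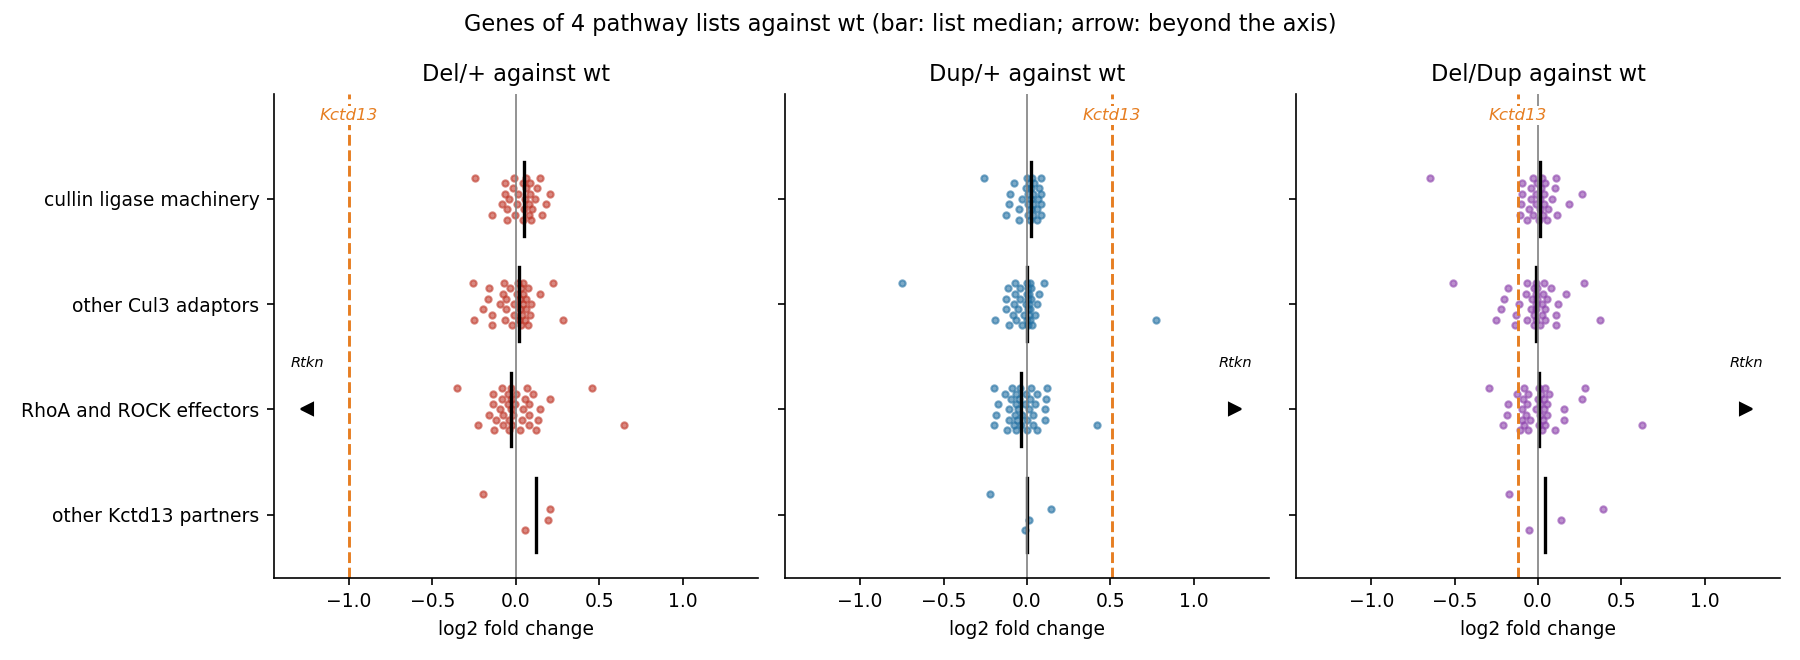
Log2 fold change from wt (horizontal axis) of the tested genes of 4 pathway lists (rows; 1 point per gene, black bar for the list median) in Del/+, Dup/+ and Del/Dup, with the Kctd13 change as a dashed line and an arrow where Rtkn lies beyond the axis. The list medians stay between −0.04 and 0.12, while Kctd13 is at −1.0, 0.51 and −0.12.

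The genes whose log2 CPM followed Kctd13 most closely over the 19 libraries were found as a description, since all of them share the genotype groups. Inside the interval list they were Coro1a, Mapk3 and Aldoa, with Pearson r of 0.991, 0.989 and 0.985. Outside the list they were AABR07005779.2 (0.970), AABR07070225.1 (0.894), Tesc (0.884), Ptx3 (0.863) and Ak4 (0.857). The list was made by symbol, so a gene outside it may still lie in the interval. The paper names a gene with the same AABR07005779 prefix among those across the region. The position of AABR07005779.2 was not looked up, and whether it shares the change in copies was not tested. On deviations from group means the values were 0.81 for Coro1a and 0.81 for Tesc but −0.38 for AABR07070225.1. Cul3 was followed most closely by Pnpla8 (0.837), Lnpk (0.828), Ipo7 (0.815), Ppp4r3b (0.795) and Ugp2 (0.793).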

How the data were processed

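Hippocampal RNA-seq of 19 rats was analysed. The authors aligned 50-base single-end reads with HISAT2 to rn6 and counted them with HTSeq, and deposited unnormalized counts for each Ensembl gene. The labels name both polyA RNA and rRNA removal, and which holds is not settled. Summary lines of the counter (5 per file) entered no test. Groups and numbers came from the sample descriptions. Genes passing filterByExpr were fitted over all libraries with edgeR 4.0.16 (R 4.3.3) by the quasi-likelihood test, with 1 mean per group, TMM scaling and a prior count of 2; a second fit used the number of copies. The threshold was a Benjamini-Hochberg adjusted p of 0.05 over 15440 genes. DESeq2 1.42.0, other scalings and filters, added terms and leaving out each library were run as alternatives. Scripts were tested on simulated counts.

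The members and gene lists were chosen with earlier results of these data known. Of 6 pathway lists, 2 are not reported singly here. All members were named; of each list described, the genes called against wt, or the 2 of smallest unadjusted p, plus Rhob, Rhoc and, chosen after its values were seen, Rtkn. Same-numbered libraries did not deviate together. Sequences of 2 guides came from the study's supplement. RefSeq (GRCr8) gave chromosomes only; 8 of 8 members matched.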

Additional observations from a re-analysis of the deposited data

Results flagged for a closer look

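Of the 32 sets of libraries examined, 8 genes in 4 groups, 1 held a library that stood apart from the rest of its group by Dixon's criterion, which marks about 1 set in 20 by chance. This was Rock2 in Del/Dup replicate 4, at 415 CPM beside 439 to 443 CPM in the other 3 libraries. The value lay within the wt range of 407 to 494 CPM.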

How the results depend on the processing

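Over 29 other settings the 7 genes outside the interval were never called, in 1183 fits of a gene and comparison. Kctd13 stayed called in Del/+ (change −1.20 to −0.93) and in the fit on copies (0.69 to 0.76) under every setting run, and uncalled in Del/Dup (−0.38 with the class of high multi-mapped share as a term to −0.04 without Del/Dup replicate 2). In Dup/+ the count of members called went from 1 to 0 with wt replicate 5 read as Dup/+ (Kctd13 change 0.42, adjusted p = 0.176) and stayed at 1 under the other settings. In wt replicate 5 Kctd13 was at 79.6 CPM, beside 109.9 to 123 CPM in the Dup/+ libraries. The cause of the lost call was not tested.

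Pathway genes called against wt rose from 0 to 3 (Del/+) and 4 (Del/Dup) with DESeq2, or 1.86% and 2.3%, beside 5.5% and 1.13% of all genes. With only the groups compared they rose to 1 in Del/+ (0.581%, beside 1.02% of all genes). For Del/+ against Dup/+ they were 2 with DESeq2 and 1 with only the groups compared, and for Del/Dup against Del/+ 1 with DESeq2. Over all genes DESeq2 called 261 and 74 in these 2 comparisons. Leaving out 1 library gave 0 to 2 in Del/+, 0 to 1 in Del/Dup, 0 to 3 in Del/+ against Dup/+, 0 to 1 in Del/Dup against Del/+ and 0 to 3 in the fit on copies. The 2 in Del/+ (1.16%) came without Del/Dup replicate 2 or 3, where 2.16% and 1.8% of all genes were called. The 1 in Del/Dup (0.578%) came without wt replicate 5 or Del/Dup replicate 3, beside 0.591% and 1.38% of all genes. Counts over all genes in the last 3 comparisons ran from 60 to 194, 22 to 34 and 48 to 124. With the replicate block the fit on copies called 0 pathway genes instead of 1, and the Kctd13 change in Dup/+ was 0.50 (adjusted p = 0.00498); no member call changed. Same-numbered libraries showed no sign of pairing: they correlated between −0.17 and 0.12 in their deviations, beside −0.24 to 0.26 for other numbers. The paper describes the wt animals as littermates of the carriers, and a shared litter was not tested. The members had at least 399 reads in every library, the lowest being Rbx1 in Del/Dup replicate 3. Rtkn had 41 reads or fewer per library. The part of read depth in the spread of the members was not tested.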
